A study of Homo sapiens with 30 samples.

Results

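The contacts of the NOTCH1 promoter were compared between K562 cells mutated at a CTCF site named S4 and WT K562 cells. The comparison used the 4 promoter-viewpoint libraries labelled S4 mutant or WT, 2 of each, out of 30 4C-seq libraries in the series and 10 at this viewpoint. Its members were the fragment ends of chromosome 9 that lay over 5 kb from the viewpoint, 382631 of 382657 ends in each library. K562 is a human line established from a chronic myeloid leukaemia. The series also profiled cells mutated at S2, at S5 or at S4 and S5 together, and it used S2 and S4 themselves as further viewpoints. Every group was grown in the same medium with no treatment, and the genotype was the only labelled difference between the groups. The labels name the S2, S4 and S5 mutants by site only, and the sources used here give neither the sequence change, nor the number of clones, nor the place of S5.

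CTCF is a zinc-finger DNA-binding protein that stalls cohesin as it extrudes chromatin loops. A bound site can therefore hold a loop anchor and insulate the chromatin on either side of it. NOTCH1 encodes a transmembrane receptor that is cleaved on ligand binding and whose intracellular part acts in transcription. In 4C-seq, cross-linked chromatin is cut and religated, and the fragments joined to 1 chosen fragment, the viewpoint, are amplified and counted. A read count at a fragment end is thus a relative measure of contact with the viewpoint, and a share that falls in 1 region can fall because another rose.

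The viewpoint lay at 139443268 of chromosome 9 (hg19), the centre of the most covered 5-kb window. S2 was placed in the same way at 139385872, 57.4 kb centromeric of it, and S4 at 139523746, 80.5 kb telomeric of it. Distances from S2 and S4 below run from these window centres, and where in a window the CTCF site lies was not determined. NOTCH1 is encoded on the minus strand, so S2 lies on the side of the gene body and S4 on the upstream side. In the RefSeq order of GRCh38.p14, SEC16A is the next gene on the S2 side, followed by INPP5E and PMPCA. EGFL7, a secreted endothelial factor, is the next on the S4 side, followed by AGPAT2, an acyltransferase of phospholipid synthesis. Exons, introns and UTRs were not assigned, since no hg19 annotation was used here. The 250 bases before the NOTCH1 start in RefSeq (GRCh38.p14, minus strand) are shown because the comparison concerns this promoter. The GC box GGGCGG is in capitals, and whether these bases lie in the viewpoint fragment was not determined.

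NOTCH1 promoter: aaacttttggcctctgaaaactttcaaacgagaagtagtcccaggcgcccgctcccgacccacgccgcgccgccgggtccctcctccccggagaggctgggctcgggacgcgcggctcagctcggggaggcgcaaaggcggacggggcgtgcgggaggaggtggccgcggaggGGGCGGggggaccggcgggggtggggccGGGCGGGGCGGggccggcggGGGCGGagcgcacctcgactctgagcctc

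The stretch was 76% G or C, against a median of 58% over 35116 RefSeq promoters of the same length, and it held 33 CpG dinucleotides against a median of 11. GGGCGG occurred 4 times when both strands were searched, 2 of them overlapping, and 42.6% of promoters held at least 1. CCCTC, the pentamer after which CTCF is named, occurred 2 times on either strand, and 66.6% of promoters held it. GATC, the DpnII site at which the chromatin was cut, was not found in these letters, while 35.8% of promoters held it.

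The libraries held 1437870 and 2314930 chromosome 9 reads in WT, and 6146699 and 5963494 in the S4 mutant. Outside the 5-kb mask the depths were 318591 and 525512 reads in WT and 324256 and 319905 in the mutant, with the second WT library the deepest. Near-cis reads, those from 5 to 500 kb of the viewpoint, numbered 212633 and 350347 in WT, and 268826 and 265803 in the mutant, over 3008 fragment ends. The mask held 77.8 and 77.3% of chromosome 9 reads in WT and 94.7 and 94.6% in the mutant. Within it, the fragment end at 139442069 took 62.1 and 61.4% of WT reads and 93.9 and 93.8% of S4 mutant reads. A second end 769 bp centromeric of it took 14.3 and 14.4% in WT but 0.0306 and 0.0357% in the S4 mutant, and 0.0185 to 0.142% over all 8 mutant libraries. WT therefore stood apart from every mutant at the viewpoint itself, and the part this plays in the comparisons with WT was not tested. For that reason the S4 mutant was also compared with the S2 and S5 mutants, which keep S4.

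The pair of libraries in each group was nearly alike at single ends. Over ends with at least 10 reads, replicate counts differed with a chi-square of 1.32 per degree of freedom in WT and 1.29 in the S4 mutant, where 1 is counting error alone. Across near-cis ends, which are not independent replicates, log2 reads correlated at r = 0.990 and 0.991 within the groups and 0.522 to 0.532 between them. The labels call them independent libraries but do not say what they share, so each p-value reflects only how far these libraries vary, and that variation may be technical.

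The first question was which stretches around the promoter gained or lost contact in the S4 mutant. Contact gathered near the promoter and thinned beyond S4 and beyond S2. The interval between the promoter and S4 rose from 34.5 and 34.4% of near-cis reads in WT to 43.8 and 43.6% in the mutant (log2 fold 0.34 ± 0.00521, SE; edgeR adjusted p = 2.53e-09). The telomeric flank of S4, the 90 kb from 10 to 100 kb beyond it, fell from 10.4 and 10.4% to 6.59 and 6.64% (log2 fold -0.66 ± 0.00971; edgeR adjusted p = 1.38e-10). For both regions the WT and mutant libraries did not overlap. Of 8 regions into which the near-cis window was parted, 7 passed the edgeR quasi-likelihood test at an adjusted p of 0.05 (87.5%), 3 higher (37.5%) and 4 lower (50%) in the mutant.

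The interval from S2 to the promoter, on the gene-body side, rose from 17.3 and 17.3% to 19.9 and 19.8% (log2 fold 0.20; edgeR adjusted p = 0.000107). It was also above WT in the other 6 mutant libraries, at 17.9 to 23.1%, so this rise was not limited to the S4 mutant. The centromeric flank of S2 fell from 9.23 and 9.28% to 6.71 and 6.66% (-0.47; edgeR adjusted p = 1.47e-07). It held 5.70 to 6.12% in the other 6 mutant libraries, so this fall from WT was not limited to the S4 mutant. The far regions fell as well, by 0.42 on the log2 scale on the centromeric side and by 0.67 on the telomeric side. The other 6 mutant libraries held 4.59 to 7.83% and 5.27 to 5.98% there, also below the WT means of 9.43 and 8.89%. The 20 kb around S4 held 4.70 and 4.71% in WT and 5.00 and 5.10% in the mutant (0.10; edgeR adjusted p = 0.000767). This small rise was no longer called with an anchor of 5 kb on each side (0.00) or with non-blind ends alone (0.01), and it turned to -0.05 with 20 kb on each side. The 20 kb around S2 held 5.58 and 5.59% in WT and 5.49 and 5.46% in the mutant and did not pass the test (-0.03; edgeR adjusted p = 0.0513).

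**Figure D1:**
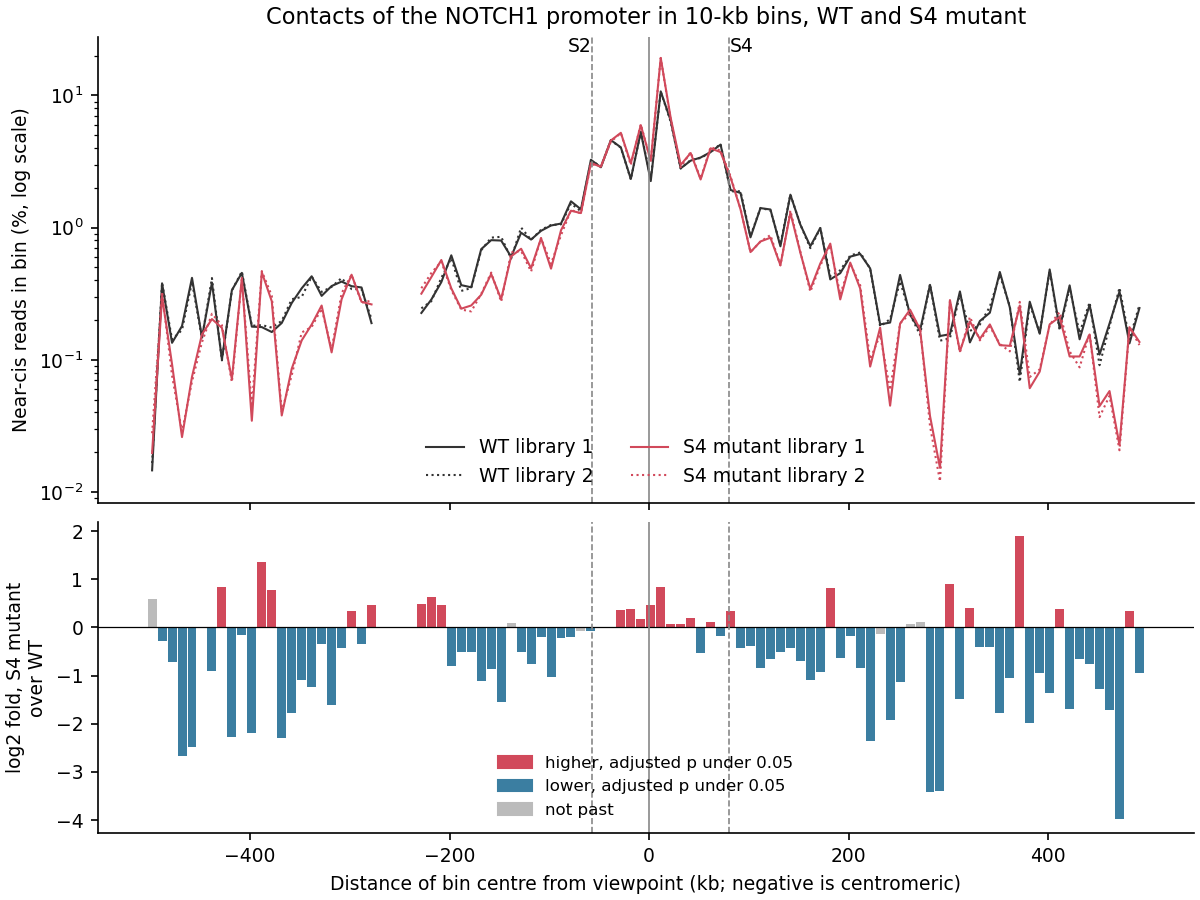
Upper panel, share of near-cis reads in each 10-kb bin (%, log scale) against the distance of the bin centre from the promoter viewpoint (kb), 1 line per library, with dashed lines at S2 and S4. Lower panel, log2 fold of the S4 mutant over WT with near-cis total scaling, coloured by the edgeR call. Bins left out for low counts break the lines, the pairs of replicate lines nearly coincide, and every bin of the S4 telomeric flank lies below 0.

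Scaling bears on these directions. Over all 96 near-cis bins the median log2 fold was -0.43 with the near-cis total, -0.11 with the chromosome 9 total or TMM factors and 0.19 with DESeq2's size factors. DESeq2 was fitted to bins only, and with it 4 of the 9 bins of the S4 flank were higher and 3 lower. Under the read-based alternatives fitted to regions the flank of S4 stayed lower, from -0.66 to -0.30. The interval from the promoter to S4 stayed higher, from 0.20 to 0.69. The centromeric flank of S2 also stayed lower as a whole, from -0.52 to -0.12. Of its 9 bins, however, 7 were lower and 0 higher with the near-cis total, 4 lower and 5 higher with the chromosome 9 total, and 3 lower and 6 higher with DESeq2. The S2 anchor changed sign among them, from -0.15 to 0.32.

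**Figure D2:**
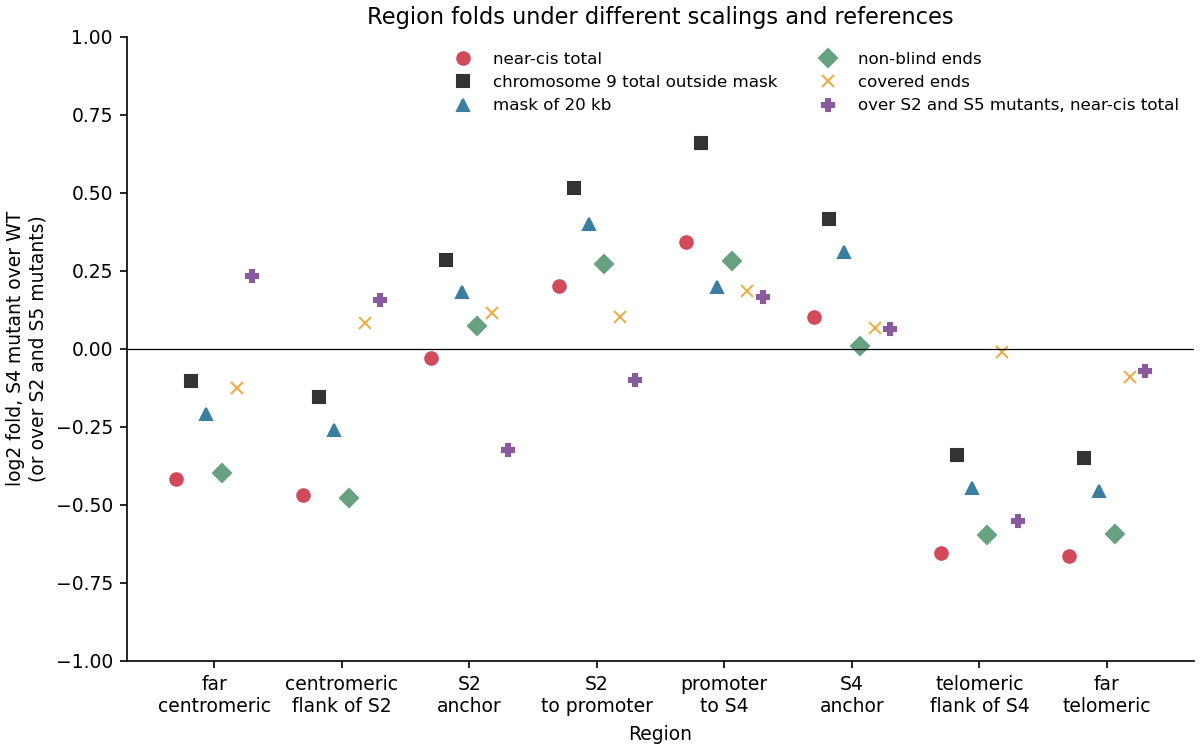
Log2 fold of the S4 mutant for each of 8 regions (ordered from centromere to telomere), over WT under 5 settings and over the mean of the S2 and S5 mutants. The telomeric flank of S4 lies below 0 under each read-based setting and against the other mutants, and at -0.01 when covered ends are counted in place of reads.

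The interval between the promoter and S4 was then followed by distance. Its gain lay near the viewpoint. From 5 to 10 kb telomeric of the promoter the share was 5.45 and 5.54% of near-cis reads in WT and 13.0 and 12.9% in the S4 mutant. The other 6 mutant libraries held 9.91 to 11.2% in that stretch, also above WT. From 10 to 20 kb it was 9.44 and 9.38% in WT and 11.4 and 11.3% in the mutant. From 20 kb up to the S4 anchor it was 19.6 and 19.5% in WT and 19.4 and 19.4% in the mutant, so that this longer stretch held nearly the same share in both.

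Of its 7 bins of 10 kb, 6 were higher and 1 lower, where 25% of all 96 near-cis bins were higher and 65.6% lower. The bin from 139450001 to 139460000, next to the viewpoint, rose from 10.7 and 10.7% to 19.2 and 19.2% (log2 fold 0.84 ± 0.00955; edgeR adjusted p = 4.2e-168). It was also high in the S2 and S5 mutants, at 15.8 to 17.0%. The bin from 139480001 rose from 3.21 and 3.25% to 3.67 and 3.72%, above the 1.72 to 3.09% of the S2 and S5 mutants. The bin from 139490001 fell from 3.39 and 3.36% to 2.31 and 2.35%, inside the 2.20 to 2.63% of those mutants. The bin from 139500001, among the 3 bins of highest WT level beyond 50 kb, held 3.73 and 3.71% in WT and 3.98 and 4.06% in the S4 mutant. It held 5.07 to 6.44% in the S2 and S5 mutants, so the S4 mutant lay nearer to WT there (log2 fold -0.50 against those mutants, 0.11 against WT).

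**Figure D3:**
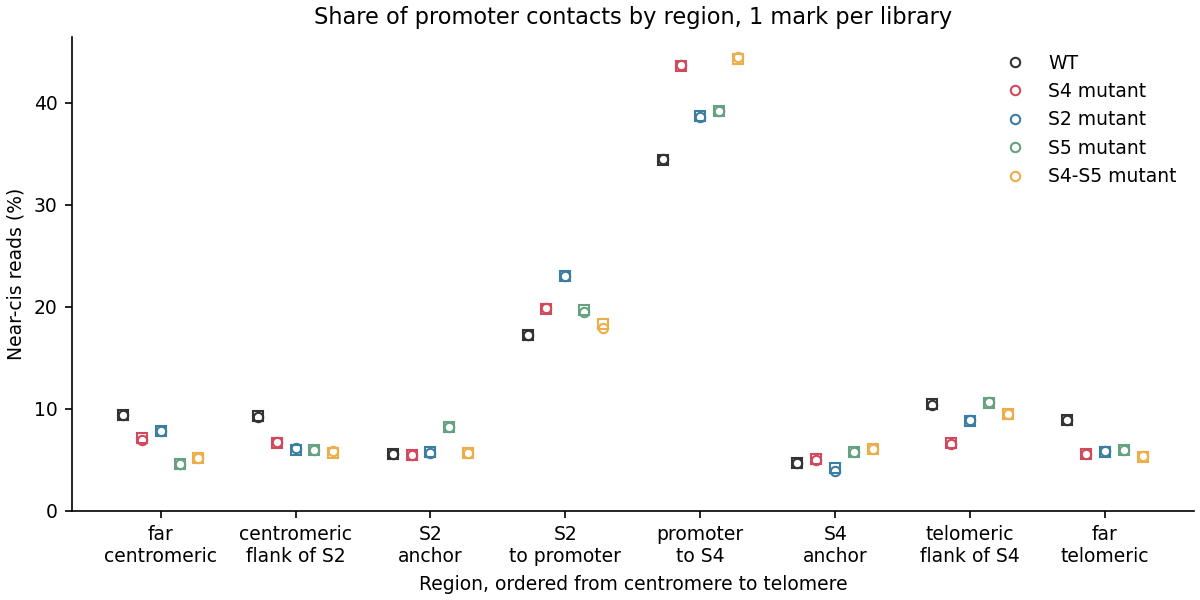
Share of near-cis reads (%) in each region for all 10 promoter libraries, 1 mark per library. The S4 mutant has the lowest share of all groups in the telomeric flank of S4, and all mutants lie above WT in the interval from the promoter to S4.

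Beyond S4 the fall was spread over the whole flank. All 9 bins of the telomeric flank were lower in the mutant, with log2 folds from -1.08 to -0.39 and a median of -0.66, against -0.43 over all bins. With the chromosome 9 total 8 of the 9 stayed lower and none was higher, and with DESeq2's size factors 4 were higher and 3 lower. The steepest was the bin from 139600001 to 139610000, which fell from 0.723 and 0.700% to 0.343 and 0.327% (edgeR adjusted p = 7.1e-51). The bin from 139530001, the telomeric neighbour of the bin that holds S4, fell from 1.83 and 1.89% to 1.38 and 1.39% (-0.43; edgeR adjusted p = 8.2e-32). Split by distance, the stretch from 10 to 50 kb beyond S4 held 5.32 and 5.35% in WT and 3.49 and 3.52% in the mutant. The stretch from 50 to 100 kb held 5.08 and 5.09% in WT and 3.10 and 3.12% in the mutant. The nearer and the farther part of the flank thus lost similar amounts.

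Against the mutants that keep S4, the flank was lower as well. It held 8.91 and 8.80% of near-cis reads in the S2 mutant and 10.7 and 10.6% in the S5 mutant, and all 4 libraries lay above both S4 mutant libraries. The log2 fold against their mean was -0.55 (edgeR adjusted p = 5.62e-09), and it was -0.42 against the S2 mutant alone and -0.69 against the S5 mutant alone. This contrast called 7 of 8 regions (87.5%), 4 higher (50%) and 3 lower (37.5%), so a call alone does not set the flank apart. It uses the same S4 mutant libraries as the contrast with WT, and the S2 mutant libraries were the thinnest, with as few as 64583 near-cis reads. It called 89 of 96 near-cis bins (92.7%), 64 of them higher (66.7%) and 25 lower (26%). The flank had 6 lower and 3 higher bins of 9, with a median of -0.46 where the median over all bins was 0.52. In 5 of its 9 bins the S4 mutant's fitted level lay below that of both the S2 and the S5 mutant, and in 4 both its libraries lay below all of theirs. Its 3 higher bins lay 51.2, 61.2 and 91.2 kb from S4, so the fall against the other mutants was not shared by every bin. The S4-S5 mutant, which is also mutated at S4, held 9.49 and 9.51% in the flank and did not share the low level of the single mutant.

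**Figure D4:**
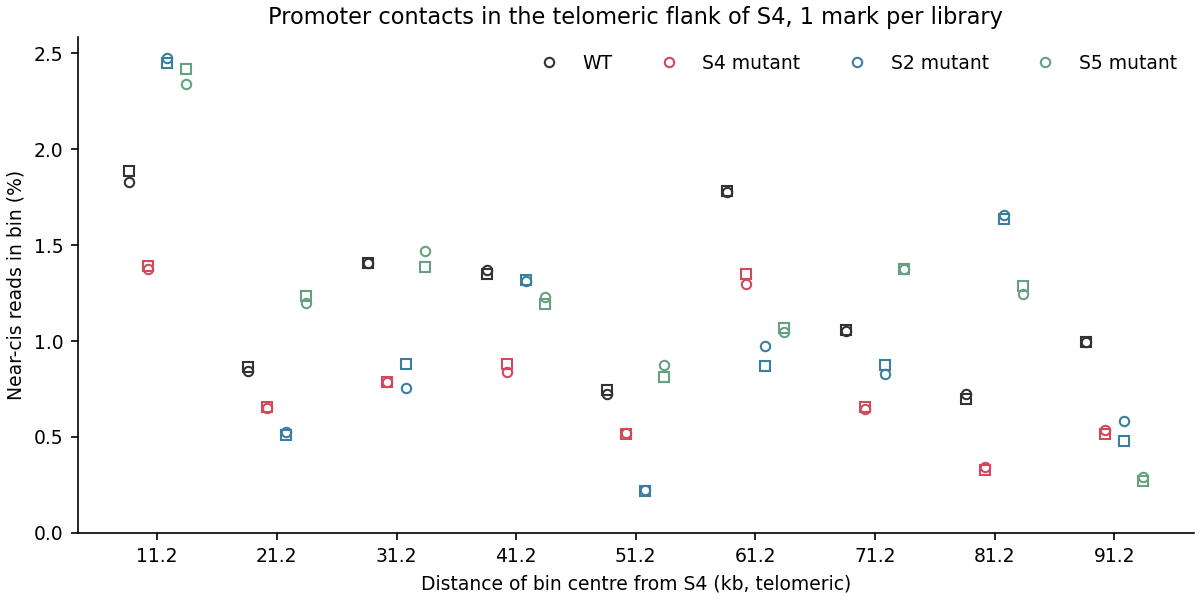
Share of near-cis reads (%) in the 9 bins of the telomeric flank of S4, by distance of the bin centre from S4 (kb), with 1 mark per library of WT and the S4, S2 and S5 mutants (circles are first and squares second libraries). The S4 mutant lies below WT in each bin, and both its libraries lie below all S2 and S5 libraries in 4.

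In the other regions the S2 and S5 mutants often differed from the S4 mutant in opposite directions or by unlike amounts, so their mean hides part of the difference. The interval from the promoter to S4 was 0.17 higher on the log2 scale than their mean, and this turned to -0.05 with TMM factors. The centromeric flank of S2 was 0.16 higher than their mean (edgeR adjusted p = 0.00255), and this too changed sign with TMM factors. The interval from S2 to the promoter was 0.10 lower than their mean (edgeR adjusted p = 0.00553). It held 23.1 and 23.0% in the S2 mutant, 19.5 and 19.7% in the S5 mutant and 19.9 and 19.8% in the S4 mutant. The S2 anchor was 0.33 lower (edgeR adjusted p = 1.16e-06), but only 0.06 lower and not called against the S2 mutant alone. The S5 mutant held the highest level of all genotypes there. The S4 anchor was 0.06 higher than the mean, from 0.32 higher against the S2 mutant alone and 0.19 lower against the S5 mutant alone. The far centromeric region was 0.23 higher than the mean, from 0.15 lower against the S2 mutant and 0.61 higher against the S5 mutant. The far telomeric region was 0.07 lower and did not pass the test (edgeR adjusted p = 0.0501).

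At the mutated site itself contact persisted. The bin that holds S4, from 139520001 to 139530000, rose from 1.93 and 1.88% to 2.40 and 2.44% (log2 fold 0.35; edgeR adjusted p = 7.3e-29). With non-blind ends alone its log2 fold was 0.12. The S2 and S5 mutants held 1.97 to 2.86% there, and the log2 fold against their mean was 0.00. The bin on its promoter side, from 139510001, held 4.25 and 4.30% in WT and 3.73 and 3.83% in the mutant, which is -0.18 on the log2 scale but 0.14 with the chromosome 9 total. Among the 70 fragment ends within 10 kb of S4, both WT libraries lay above both mutant libraries at 32 and below them at 31. The end at 139517999, 5747 bp before S4, was the strongest and fell from 0.463 and 0.486% to 0.362 and 0.370% of near-cis reads. The end at 139522917, 829 bp before S4, rose from 0.167 and 0.148% to 0.250 and 0.278%. The end at 139533297, 9551 bp beyond S4, fell from 0.245 and 0.251% to 0.147 and 0.145%.

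One end stood apart. The most covered end of the S4-viewpoint libraries, at 139523875, had 2 and 7 reads in the WT promoter libraries and 406 and 392 in the S4 mutant. In all 8 mutant libraries it had 312 to 1504 reads, so its rise was not limited to the S4 mutant. It took 0.00094 and 0.0020% of near-cis reads in WT and 0.151 and 0.147% in the S4 mutant. This end lies in the bin that holds S4 and within the 20 kb around S4, so it made up part of their rise. The corresponding S2-viewpoint end, at 139388148, had 256 and 354 reads in WT and 236 and 278 in the S4 mutant.

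S2 lies on the far side of the gene from S4 and was intact in the S4 mutant. The bin that holds S2, from 139380001 to 139390000, held 3.26 and 3.22% in WT and 3.08 and 3.03% in the mutant, a log2 fold of -0.08 (edgeR adjusted p = 0.00013). The sign turned to 0.23 with the chromosome 9 total. Its neighbours on either side did not pass the test, with log2 folds of -0.07 and 0.00. The end at 139384866, 1006 bp from S2, rose from a WT mean of 0.254% to 0.546% of near-cis reads, while the end at 139383372, 2500 bp from S2, fell from 0.364% to 0.212%. Of the 54 ends within 10 kb of S2, WT was above at 25 and below at 20.

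Over the whole window 87 of 96 bins passed the edgeR test (90.6%), 24 higher and 63 lower, and all 87 had both mutant libraries beyond both WT libraries. With such tight replicates a call carries little, so the size of change was counted as well. Of the bins called, 2 were at least 2-fold higher and 27 at least 2-fold lower. These large changes lay far from the promoter: 1 of 20 bins within 100 kb, 5 of 28 at 100 to 250 kb and 23 of 48 at 250 to 500 kb. Distant bins rested on few ends, and a single end held over 50% of the bin's reads in 15 bins of the mutant and 4 of WT.

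The strongest fall was in the bin from 139910001, 471.7 kb telomeric, from 0.328 and 0.351% to 0.0227 and 0.0207% (15.7-fold lower; edgeR adjusted p = 5.4e-95). Of its 34 ends, 10 had reads in both WT libraries and 6 in both mutant libraries, and 1 end held 79.3% of the mutant's reads. The bins from 139720001 and 139730001, side by side about 281.7 and 291.7 kb telomeric, fell 10.7-fold and 10.5-fold. On the centromeric side the bins from 138970001 and 138980001 fell 6.33-fold and 5.61-fold. These distant losses were thus found on both sides, not beyond S4 alone. Each was shared in direction by at least 1 mutant that keeps S4. The S2 and S5 mutants held 0.000567 to 0.00155% in the bin from 138970001, below the 0.0260 and 0.0286% of the S4 mutant. They held 0.0145 to 0.108% in the bin from 138980001, on both sides of the S4 mutant's 0.0744 and 0.0685%. In the bins from 139720001 and 139730001 the S2 mutant means, 0.0121 and 0.00373%, were below the S4 mutant and the S5 mutant means, 0.410 and 0.101%, above it. In the bin from 139910001 the S2 and S5 mutants held 0.0703 to 0.728%, all above the S4 mutant.

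The strongest rise was in the bin from 139810001, 371.7 kb telomeric, from 0.0776 and 0.0679% to 0.257 and 0.274% (3.70-fold; edgeR adjusted p = 7.6e-57). A single end held 91.8% of its WT reads and a different end led in the mutant. The bin from 139050001, 388.3 kb centromeric, rose from 0.177 and 0.183% to 0.459 and 0.470%, and 11 and 12 of its 47 ends were covered in both libraries of WT and mutant. The bins from 139740001 and 139010001 rose 1.87-fold and 1.79-fold from WT levels of 0.156 and 0.146% and of 0.101 and 0.0990%. In the bins from 139810001, 139740001 and 139010001 the other 6 mutant libraries held at most 0.0978, 0.100 and 0.0542%, below the S4 mutant. In the bin from 139050001 they held 0.202 to 0.362%, above WT and below the S4 mutant.

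The breadth of contact was narrower in the S4 mutant than in WT, and narrower still in the S2 and S5 mutants. Reads covered 54.1 and 55.2% of near-cis ends in WT and 47.3 and 48.5% in the S4 mutant. At an equal depth of 212633 reads the expected shares were 54.1 and 52.9% in WT and 45.8 and 46.9% in the mutant. In the telomeric flank of S4 the equal-depth shares were 82.2 and 80.0% in WT and 69.6 and 69.0% in the mutant, and in the interval from the promoter to S4 they were 95.4 and 95.2% against 94.6 and 94.9%. Thinned to the 64583 reads of the shallowest promoter library, 1465 and 1454 ends were expected to be covered in WT, 1209 and 1224 in the S4 mutant and 1013 to 1022 in the S2 and S5 mutants. The S4-S5 mutant, also mutated at S4, lay between WT and the S4 mutant, at 1393 and 1395 ends. All 8 regions had lower equal-depth coverage in the S4 mutant than in WT. When covered ends were tested relative to each library's total of covered ends, 0 of 8 regions (0%) and 0 of 58 bins (0%) passed the edgeR test, and 0 had an unadjusted p under 0.05. In this measure the flank of S4 had a log2 fold of -0.01 ± 0.0972 (SE; edgeR adjusted p = 0.925). An end counts once here however many reads it has. Most ends of the flank and of the interval to S4 were covered in each WT and S4 mutant library, and a change in reads at an end that stays covered is not seen. The totals of covered ends were also lower in the mutant, at 1423 and 1460 against 1628 and 1661 in WT. Scaling to them removes a loss of covered ends that the regions share. The test thus shows only how covered ends were divided among regions and bins. In simulated counts of the 58 bins it recovered 0% of 1.5-fold changes and 42.9% of 2-fold changes. Changes of that size in bins could therefore pass unseen. Of 1520 ends covered in both WT libraries and 1291 in both mutant libraries, 957 were shared, 63.0% of the WT ends and 74.1% of the mutant ends.

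Beyond the near-cis window the mutant held less in each distance class. As shares of chromosome 9 reads outside the mask, each distance class up to 100 kb was higher in the mutant and each class beyond 100 kb lower, with both sides added. The class from 5 to 10 kb rose from 6.11 and 6.21% to 13.7 and 13.7%. Most of that was telomeric, where the share rose 2.94-fold, against 1.17-fold on the centromeric side. The other 6 mutant libraries held 13.1 to 13.3% in the class from 5 to 10 kb, so its rise over WT was not limited to the S4 mutant. The classes from 100 to 200 kb and from 200 to 500 kb fell 1.19-fold and 1.20-fold, the class from 20 to 50 Mb fell from 4.96 and 4.97% to 1.30 and 1.30%, and the class over 50 Mb fell 8.56-fold to 0.380 and 0.383%. The other 6 mutant libraries also held little in that last class, at most 0.572%.

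**Figure D5:**
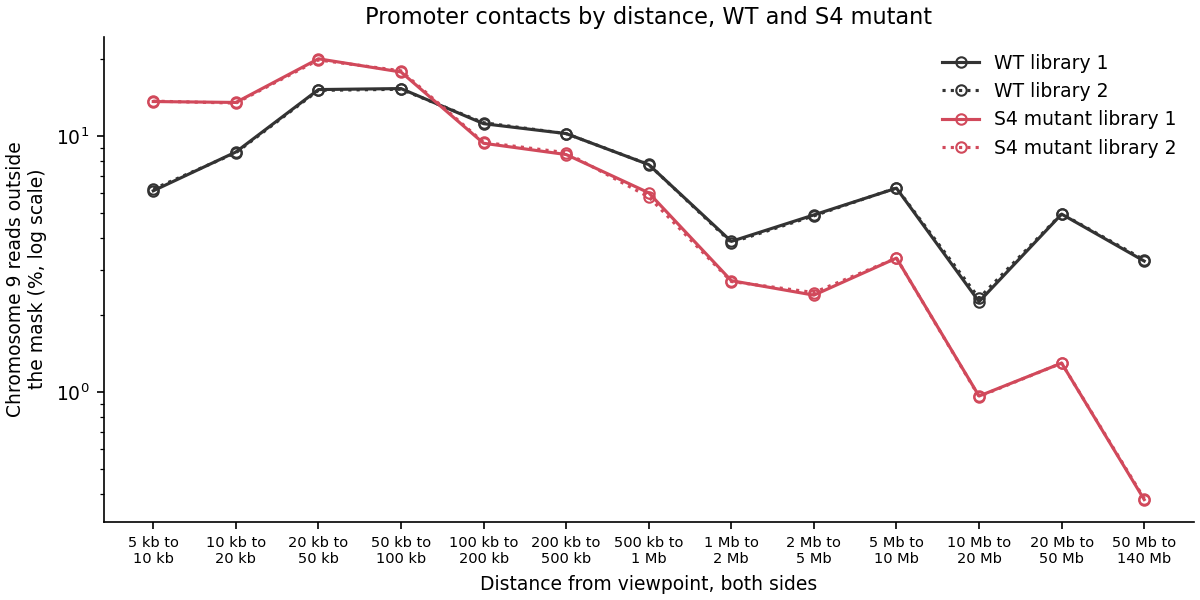
Share of chromosome 9 reads outside the mask (%, log scale) by distance from the viewpoint, both sides added, 1 line per library. The S4 mutant lies above WT in the classes up to 100 kb and below it in each class beyond, most of all over 50 Mb.

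All 97 bins of 1 Mb passed the edgeR test with chromosome 9 scaling (100%), 5 higher (5.15%) and 92 lower (94.8%). Scaled to the far-cis total, 88 passed (90.7%), 15 higher (15.5%) and 73 lower (75.3%), and 8 of the 13 bins within 10 Mb were then higher. In 4 bins, each over 50 Mb away, both mutant libraries had 0 reads. The bin from 27000001 had 177 and 319 WT reads and was at least 126-fold lower, with a floor of 3 reads over both mutant libraries. The bins from 85000001 and 87000001 were at least 123-fold and at least 92.1-fold lower by the same floor. These WT reads sat on 4 to 6 ends covered in both libraries. Against the S2 and S5 mutants the bins from 27000001 and 87000001 did not pass (edgeR adjusted p = 0.9998 for each). The bin from 85000001 was lower than in those mutants (edgeR adjusted p = 0.00279). The bins with the largest rises, from 72000001, 92000001 and 104000001, rose by log2 folds of 0.77, 0.71 and 0.59, and 1 end held 74.7 to 91.3% of their mutant reads. Leaving out the most covered end turned the first pair of these to -1.20 and -1.64. Against the S2 and S5 mutants 67 of 97 bins passed (69.1%), 44 higher (45.4%) and 23 lower (23.7%).

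Library-wide values showed a shift from WT. The other 6 mutant libraries shared its direction in the slope and the shares within 50 and 500 kb. They also shared it in the mask share and in the covered ends as counted. Their mask share was 88.1 to 98.6%, against 77.8 and 77.3% in WT. Reads covered 33.7 to 52.6% of their near-cis ends, at unlike depths, against 54.1 and 55.2% in WT. The near-cis share of reads outside the mask was 66.7% ± 0.0523 in WT and 83.0% ± 0.129 in the mutant (SD, n = 2; exact two-sided permutation p = 0.333, the smallest that 2 against 2 allows). It was 82.6 to 85.7% in the other 6 mutant libraries. The share within 50 kb was 44.9% ± 0.0453 in WT and 56.8% ± 0.290 in the S4 mutant, and 51.4 to 53.8% in the others. The slope of log10 reads on log10 distance was -0.93 in WT and -1.16 in the S4 mutant, and -1.19 to -1.13 in the others. The log2 ratio of telomeric over centromeric near-cis reads was 0.49 in WT and 0.64 in the S4 mutant, with 0.42 to 0.92 in the others, and its difference from WT turned to -0.0862 with a mask of 20 kb. All 7 such values, with the mask share and both coverage values, separated the groups and had the same exact p of 0.333.

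The same mutant cells were also profiled from S2 and from S4, which gives separate libraries for the regions above. From S2, the flank beyond S4 held 15.1 and 15.1% of near-cis reads in WT and 11.3 and 11.2% in the S4 mutant, within the 7.30 to 12.5% of the S2 and S5 mutants. From S4 itself, the flank held 17.5 and 17.8% in WT and 14.7 and 14.6% in the mutant, below the 17.0 to 19.5% of the S2 and S5 mutants. The flank was thus lower than WT from all 3 viewpoints, and below every S2 and S5 mutant library from the promoter and from S4. The interval from the promoter to S4 went the other way from these viewpoints than from the promoter. It held 14.2 and 14.3% of S2-viewpoint reads in WT and 12.7 and 12.8% in the mutant (log2 fold -0.16). The S2 and S5 mutants held 9.31 to 14.2% there, on both sides of the S4 mutant. The interval held 15.5 and 15.2% of S4-viewpoint reads in WT and 12.3 and 12.4% in the mutant (-0.32). In the S2 and S5 mutants it was 8.71 to 13.2%, also below WT, so this fall was not limited to the S4 mutant. The higher share of this interval was thus seen from 1 of the 3 viewpoints, the promoter. The S2 anchor seen from S4 held 8.22 and 8.15% in WT and 10.4 and 10.6% in the mutant, within the 6.53 to 12.4% of the S2 and S5 mutants. The promoter within 10 kb held 3.90 and 4.04% of S4-viewpoint reads in WT and 3.05 and 3.05% in the S4 mutant, below the 3.58 to 4.92% of the S2 and S5 mutants. From S2 the promoter held 3.17 and 3.21% in WT and 4.17 and 4.10% in the mutant, against 3.04 to 4.05% in the S2 and S5 mutants. The exact two-sided permutation p was 0.333 for each of these comparisons, the smallest that 2 against 2 allows. The S4 anchor seen from S2 held 9.83 and 9.71% in WT and 9.78 and 10.0% in the mutant, so the groups overlapped (exact permutation p = 0.667).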

How the data were processed

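Per the labels' protocols, 10 M K562 cells were fixed in 2% formaldehyde for 10 min, cut with DpnII, ligated, cut with NlaIII or CviQI, ligated again and amplified by PCR with 16 first-round cycles. The authors deposited whole read counts per chromosome 9 fragment end, per the file headers, and signal columns, which were not used. The submitters' processing notes name hg19 and deepTools, and the sources used here do not name the aligner.

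Counts were summed in 10-kb bins, 8 regions and 1-Mb bins, keeping bins with a mean of at least 10 reads, and tested with edgeR 4.0.16 (R 4.3.3) quasi-likelihood F tests on all 10 promoter libraries, with Benjamini-Hochberg adjustment and a threshold of 0.05. Standard errors come from the F statistic and were not taken below the counting error. Near-cis totals were the library sizes, which for far-cis bins were chromosome 9 totals outside the mask. DESeq2 1.42.0 was an alternative. Scripts were tested on simulated data. Single values were compared with exact permutation tests (scipy 1.17.1).

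The members, regions, lists and tests were chosen with earlier results of these data known. Bins named were those at S2 and S4 and their neighbours, the 3 highest in WT beyond 50 kb and the 5 largest changes in each direction (3 for far-cis bins), and ends the 5 strongest within 10 kb of S2 or S4. Bins within the 2 regions next to S4, and the S2 and S4 viewpoint ends, were named after their values were seen. Replicate deviations correlated between genotypes at r = -0.0974 to 0.406, so replicate numbers were not taken as pairs. Reads carry no molecular identifiers, so floors cover counting error only.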

Additional observations from a re-analysis of the deposited data

How the results depend on the processing

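Of the 634 alternative values computed, 540 kept their direction and their side of the threshold. Counts of near-cis bins depended on scaling and bin size. Higher bins numbered 40 with the chromosome 9 total, 38 with TMM factors, 52 with DESeq2, 40 with the near-cis total beyond 50 kb (a scaling chosen after seeing the data), 52 with 5-kb bins, 11 with 20-kb bins, 13 in a window of 250 kb and 54 in one of 1 Mb. Lower bins numbered 35 with DESeq2, 123 with 5-kb bins, 35 with 20-kb bins, 33 in 250 kb and 123 in 1 Mb. Higher far-cis bins numbered 15 with the far-cis total, 30 with TMM, 33 with DESeq2, 0 with 2-Mb bins, 3 without the most covered end and 1 by covered ends. Lower ones numbered 55 with TMM and with DESeq2, 163 with 0.5-Mb bins, 53 with 2-Mb bins and 10 by covered ends. Other bin sizes and windows change the number of bins tested, and the other causes were not tested.

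No region passed when covered ends replaced reads. An end counts once in that measure. Most ends near the promoter were covered in each WT and S4 mutant library, which limits the change seen there. In the far regions 30 to 40.6% of ends were covered in these libraries. The counts were also scaled to each library's total of covered ends, which was lower in the mutant. These values thus say little about the stability of the read counts. The log2 folds were -0.12 (far centromeric), 0.083 (centromeric flank of S2), 0.11 (S2 anchor), 0.10 (S2 to promoter), 0.19 (promoter to S4), 0.065 (S4 anchor), -0.0091 (telomeric flank of S4) and -0.090 (far telomeric). The S2 anchor turned to 0.29 with the chromosome 9 total and TMM factors, 0.18 with a 20-kb mask, 0.073 with non-blind ends and 0.32 with the total beyond 50 kb. It became a call at -0.15 and -0.086 with anchors of 5 and 20 kb, -0.099 without its most covered end and -0.030 with only the 4 libraries fitted. The S4 anchor moved to 0.0028, -0.047 and 0.010 with anchors of 5 and 20 kb and non-blind ends. The telomeric over centromeric difference turned to -0.0862 with a 20-kb mask.

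Against the S2 and S5 mutants, TMM factors gave 0.021 (far centromeric), -0.057 (centromeric flank of S2), -0.045 (promoter to S4), -0.15 (S4 anchor) and -0.28 (far telomeric, now called). The chromosome 9 total gave 0.034 for the S4 anchor and -0.10 for the far telomeric region. The S2 mutant alone gave -0.15 (far centromeric) and -0.060 (S2 anchor), and the S5 mutant alone 0.016 (S2 to promoter), -0.19 (S4 anchor) and -0.091 (far telomeric). Fitting the replicate number as a block left 0.065 for the S4 anchor uncalled and made -0.072 for the far telomeric region a call. With the block 25 near-cis bins were higher and 63 lower than WT.

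Named bins that changed sign were those from 139370001 (0.25 with the chromosome 9 total and TMM, 0.55 with DESeq2, 0.14 with a 20-kb mask, 0.075 without the top end, 0.28 beyond 50 kb), 139380001 (0.23, 0.24, 0.54 and 0.13 in the same order, 0.054 with non-blind ends, 0.27 beyond 50 kb), 139510001 (0.14, 0.14, 0.44, 0.032, and 0.17 beyond 50 kb), 139530001 (0.19 with DESeq2) and 139390001 (-0.070 in 250 kb, -0.022 without the top end, -0.0089 to 0.016 over the leave-one-out fits). The far-cis bins from 72000001 and 92000001 turned to -1.20 and -1.64 without the top end. Leaving out each library in turn ended no other call and turned no other sign among 176 such values. The flank of S4 ran from -0.66 to -0.65 in these fits and the interval from the promoter to S4 stayed at 0.34, with counts of higher and lower near-cis bins of 23 to 24 and 62 to 64. Depth limits the distant bins most: from 250 to 500 kb the leading end held a median of 31.9% of a bin's WT reads and 37.4% of its mutant reads.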
